A study of Mus musculus with 12 samples.

Results

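The genes described here encode the molecules that show peptides to T cells, those of the mouse major histocompatibility complex (MHC) and its antigen presentation machinery. They were read in bulk RNA from gastrocnemius muscle of mice made to express DUX4, the gene behind facioscapulohumeral muscular dystrophy. Members are the 43 genes whose name in the deposited table starts with H2-, together with Cd74, Ciita, B2m, Tap1, Tap2, Tapbp and Nlrc5. They are 50 of the 37748 genes in the table. By known role, 35 belong to class I presentation and 13 to class II. The remaining 2, H2-Ke2 and H2-Ke6, carry the H2- name for their place in the complex and encode other proteins.

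There were 12 mice, 3 in each of 4 groups, all 13 weeks old, with 1 polyA library of single 50-base reads per mouse. Control mice were ACTA1-MCM/+, which carries a tamoxifen-inducible Cre (MerCreMer) under the skeletal muscle promoter of ACTA1, and had no tamoxifen. FLExD/+ mice (strain label FLExDUX4/+) had the DUX4 transgene alone, placed in the Rosa26 locus so that Cre has to turn it, though the paper describes low leaky expression, and had no tamoxifen; their label reads mild pathology although they lack Cre. Moderate and severe mice were FLExDUX4/+;MCM/+. The moderate group got 1 intraperitoneal injection of tamoxifen at 5 mg/kg and the severe group 2 injections at 10 mg/kg on consecutive days, and their muscles were taken on day 9. No group received tamoxifen without DUX4 induction, so the effects of the drug and of DUX4 cannot be told apart here. The paper also reports low recombination of the transgene and some DUX4 protein in FLExDUX4/+;MCM/+ mice without tamoxifen. No untreated mice of that genotype are among the 12, so this earlier expression cannot be told apart from the induced one either. Total counts ran from 23796902 in severe mouse 1047 to 29136403 in control mouse 1349.

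MHC class I molecules pair a heavy chain with the light chain B2m and carry peptides from inside the cell, cut by the proteasome and moved into the endoplasmic reticulum by the TAP transporter. Nearly all nucleated cells make them, though resting skeletal muscle fibres make little. Class II molecules pair an alpha with a beta chain, are escorted by the invariant chain Cd74, and carry peptides from material taken up from outside; they are mainly a product of macrophages, dendritic cells and B cells. NLRC5 switches on class I genes and CIITA class II genes, and both act through a shared set of promoter boxes; interferon gamma raises both classes.

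In short, the summed levels of both classes were higher in the moderate and the severe muscles than in controls. Of class II, Cd74, H2-Aa, H2-Ab1 and H2-Eb1 were already several times higher in moderate mice, and no class II gene was called higher again in severe mice under TMM scaling. Of the 21 class I genes tested 7 were, B2m, H2-K1, H2-D1, Tap1 and Nlrc5 among them, and 14 were not, where 16.2% of all genes were. With library size alone these counts were 4 of 10 for class II and 20 of 21 for class I, where 54.1% of all genes were called, and the difference between the classes was not tested. By the ratio of the summed levels within a mouse, which carries no test, class II was larger in proportion to class I in every moderate mouse than in any other mouse. FLExD/+ muscle resembled control muscle in the values of most members.

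The summed level of the 35 class I genes, in read counts scaled to TMM-adjusted library sizes (CPM), was 279, 216 and 247 in the control mice and 285, 254 and 251 in the FLExD/+ mice. It was 495, 392 and 379.8 in the moderate mice and 643, 579 and 620.1 in the severe mice. These 3 levels of class I, the low one shared by the control and FLExD/+ mice, did not overlap. The summed level of the 13 class II genes was 86.0, 65.0 and 92.0 CPM in the control mice and 80.7, 70.6 and 69.2 CPM in the FLExD/+ mice. It was 320.0, 242 and 264 CPM in the moderate mice and 197, 209 and 219.8 CPM in the severe mice. Here the moderate mice were the highest and lay above every severe mouse, an order that turns round when libraries are scaled by total counts alone or read as TPM, which also divides by gene length, as shown further on.

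The ratio of the classes within a mouse does not depend on the scaling between libraries. The log2 of the class II sum over the class I sum was -1.70, -1.73 and -1.43 in the control mice, and -1.82, -1.85 and -1.86 in the FLExD/+ mice. It was -0.63, -0.69 and -0.53 in the moderate mice and -1.70, -1.47 and -1.50 in the severe mice. All moderate mice lay above all other mice, and the severe values fell inside the range of the controls. The mean of the moderate group exceeded that of the controls by 1.00, within 0.95 to 1.10 when the sums were taken in TPM, when only the heavy chains and class II binding chains were summed, or when any mouse of these groups was left out. The severe mean differed from the control mean by 0.06 (0.00033 to 0.16 over the same alternatives) and from the moderate mean by -0.94 (-0.995 to -0.87). In TPM the ratio itself, class II over class I, was 0.365 ± 0.0449 in controls (SD, n = 3), 0.314 ± 0.00589 in FLExD/+ mice, 0.725 ± 0.0559 in moderate mice and 0.364 ± 0.0312 in severe mice. As a sum over genes chosen with the results known, this ratio carries no test.

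**Figure D1:**
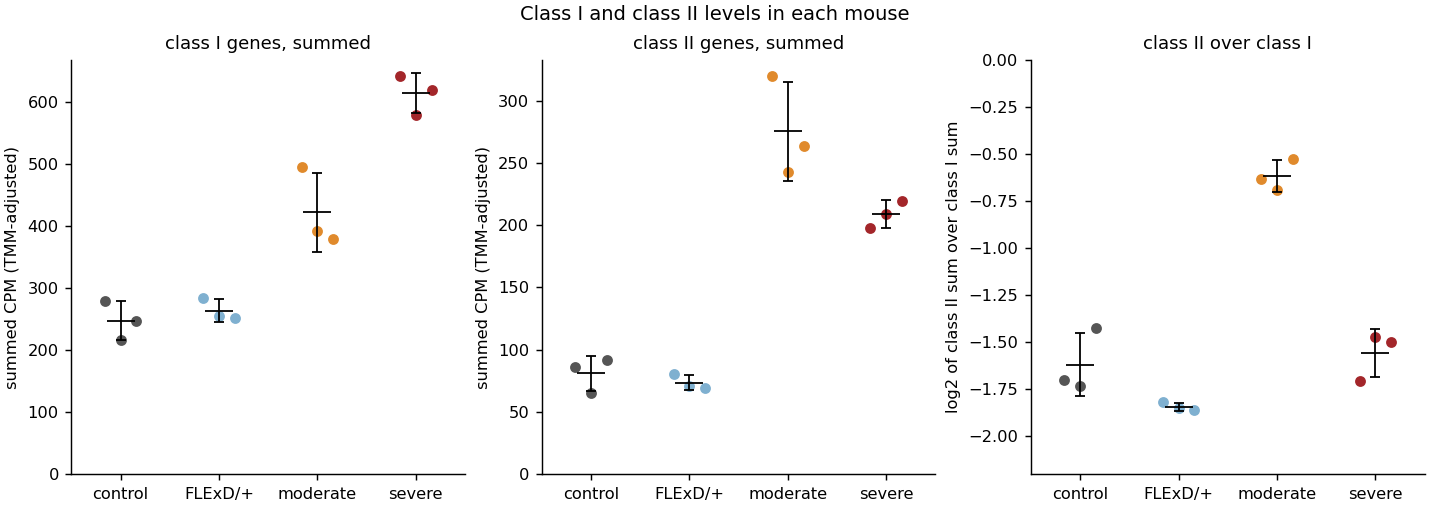
Summed CPM of the 35 class I genes (left) and the 13 class II genes (middle), and log2 of the class II sum over the class I sum (right), for each of the 12 mice by group; points are mice, the dash and bar are the mean and SD of 3 mice. Class I is highest in severe mice; class II is highest in moderate mice on this TMM scale, and severe mice are the higher ones when libraries are scaled by total counts alone or read in TPM. The log2 ratio lies between -0.69 and -0.53 in moderate mice and between -1.86 and -1.43 in all others.

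For tests, 33 of the 50 members had 5 or more counts in at least 3 of the 12 mice, 21 of them class I and 10 class II. The other 17 reached at most 9 counts in any mouse (H2-Oa, in severe mouse 1066), and 5 of them (H2-Ea-ps, H2-M1, H2-M10.4, H2-Q3 and H2-Pb) had 0 counts in all mice. H2-M2 and H2-Eb2 passed only through moderate and severe mice and H2-M6-ps only through control and FLExD/+ mice, so the direction of these 3 was set by the filter and their calls are no support. H2-Q1 reached 5 counts in the severe mice and in control mouse 1127 alone. A higher call of H2-Q1 in severe mice is therefore no support either. It was not called under TMM with all mice, and it is counted in the totals below, those with library size alone included. A member was called when edgeR's quasi-likelihood test gave a Benjamini-Hochberg adjusted p under 0.05 over all 18502 genes tested and a log2 fold change of at least 0.5 in either direction. In moderate mice 20 members were called higher than control and 1 lower, where 23% of all genes tested were called higher and 15.1% lower. In severe mice 22 were called higher and 3 lower, against 31.3% and 25.9% of all genes. Without the 3 genes whose direction the filter set, 18 of 30 were higher and 0 lower in moderate mice, and 20 were higher and 2 lower in severe mice. Between severe and moderate mice 7 were called higher and 1 lower, against 16.2% and 17.3%. With library size alone the severe counts became 31 higher and 0 lower against control, where 73% and 5.97% of all genes were then called, and 24 higher and 0 lower against moderate mice, where 54.1% and 4.57% were. With limma on log2(TPM + 1) they were 28 and 0 against control (59.3% and 5.43% of all genes), and 18 and 0 against moderate mice (44.2% and 3.46%). The scaling shifts every gene: over all genes tested, the log2 fold change had a median of 0.05 in moderate and 0.10 in severe mice under TMM, and 0.65 and 1.39 under library size alone. Severe against moderate, those medians were 0.02 and 0.72. Library size alone moves genes upward here, so a fall under TMM that is smaller than the distance between the 2 medians can turn into a rise.

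By class, 11 of the 21 class I genes tested were higher in moderate mice and 13 in severe mice under TMM, with 1 lower in each, H2-M6-ps. Without H2-M2 and H2-M6-ps, 10 and 12 of 19 were higher and 0 lower. With library size alone 15 and 20 of the 21 were higher, where 48.9% and 73% of all genes were. By limma on log2(TPM + 1) 11 and 19 were, where 28.7% and 59.3% of all genes were. The class I median log2 fold change under TMM was 0.66 and 0.98, or 0.40 and 0.82 with H2-M2, at 0 in all controls, set at its lower bound. Of the 10 class II genes tested, 9 were higher in moderate and 9 in severe mice, or 8 and 8 of 9 without H2-Eb2. The shares of all genes were 23% and 31.3%. DESeq2 called 8 and 8 class II genes higher, where 21.7% and 29.7% of all genes were. By limma on log2(TPM + 1) 7 and 8 were higher, and with library size alone 10 and 10, against the shares of all genes given above for these settings. edgeR called 0 class II genes lower, with 0 lower at an unadjusted p under 0.05 and 0 lower by DESeq2 or limma. Their medians were 1.71 and 1.38, or 1.57 and 1.30 with H2-Eb2 at its bound. Both models were compared with the same 3 control mice, so the 2 sets of values are not independent. The class II genes called were the same 9 in both models, and H2-DMb2 was the gene left over.

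**Figure D2:**
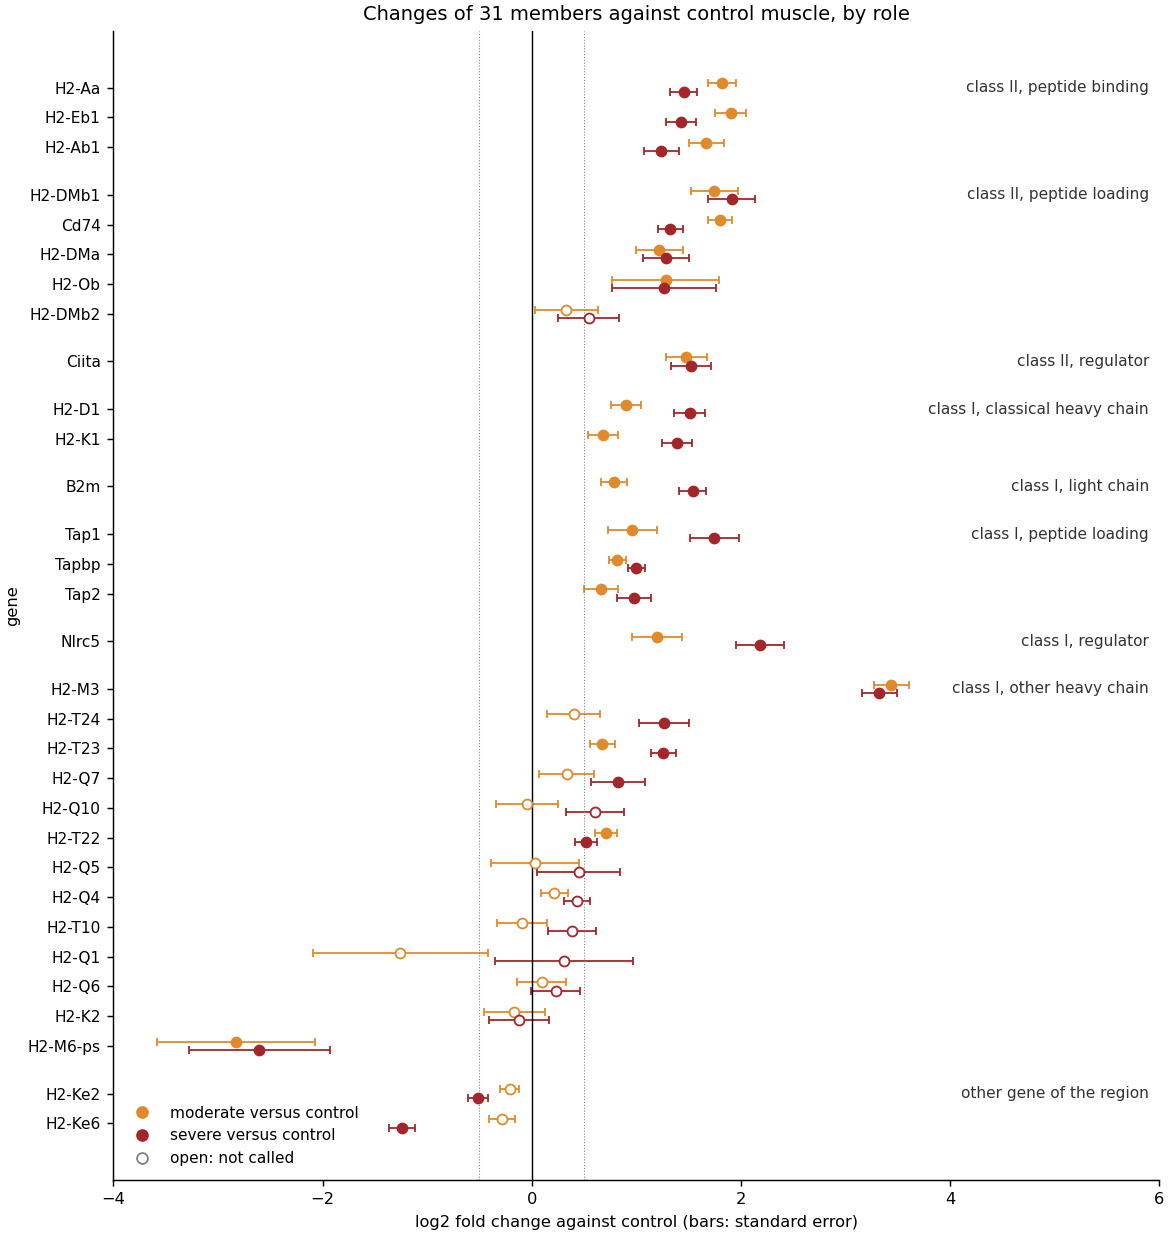
Log2 fold change against control (horizontal axis) of 31 members in moderate (orange) and severe (red) mice, grouped by role; bars are standard errors, filled points were called by edgeR, open ones were not, and dotted lines mark the threshold of 0.5. H2-M2 and H2-Eb2 are left out because all control mice had 0 counts. Cd74, H2-Aa, H2-Ab1 and H2-Eb1 lie further left in severe than in moderate mice under TMM, class I genes such as B2m, H2-K1, H2-D1, Tap1 and Nlrc5 lie further right in severe mice, and H2-Ke2 and H2-Ke6, which encode neither class, lie left of 0 in severe mice under TMM and not under library size alone.

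Promoters of some members called higher in both models are shown first, because class I and class II genes share the boxes that NLRC5 and CIITA work through. RefSeq promoters (GRCm38.p6) were at hand for 34 members, 21 of them tested. The 250 bases before the start are printed for a class II alpha chain (H2-Aa, chr17:34287824-34288073, minus strand), a class II beta chain (H2-Eb1, chr17:34305617-34305866, plus strand) and a class I heavy chain (H2-K1, chr17:34000348-34000597, minus strand). They are also printed for the class I light chain (B2m, chr2:122147437-122147686, plus strand) and for H2-M3 (chr17:37269984-37270233, plus strand), the class I gene that rose most in fold among those measured in controls. Capitals mark matches on either strand to 3 motifs: TGACG, the core of the X2 box read by CREB-type factors; ATTGG, the Y box read by NF-Y; and AGNAACNGA, an X1-like box of the RFX complex. In H2-Aa the run of capitals is a pair of overlapping TGACG matches on opposite strands.
H2-Aa: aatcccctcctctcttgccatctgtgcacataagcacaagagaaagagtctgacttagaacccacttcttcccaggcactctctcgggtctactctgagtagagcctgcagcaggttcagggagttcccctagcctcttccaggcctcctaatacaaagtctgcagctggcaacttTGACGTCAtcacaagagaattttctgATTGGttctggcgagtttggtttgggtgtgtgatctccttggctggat
H2-Eb1: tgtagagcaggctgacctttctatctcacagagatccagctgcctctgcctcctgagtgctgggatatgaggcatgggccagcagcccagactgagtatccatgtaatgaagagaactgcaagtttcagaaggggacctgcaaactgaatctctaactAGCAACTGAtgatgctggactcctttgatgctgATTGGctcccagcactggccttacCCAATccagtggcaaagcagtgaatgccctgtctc
H2-K1: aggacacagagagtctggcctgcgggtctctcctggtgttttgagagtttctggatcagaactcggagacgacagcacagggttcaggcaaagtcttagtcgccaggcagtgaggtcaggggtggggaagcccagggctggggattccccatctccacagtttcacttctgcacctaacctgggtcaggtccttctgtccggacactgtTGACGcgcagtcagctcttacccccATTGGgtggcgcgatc
B2m: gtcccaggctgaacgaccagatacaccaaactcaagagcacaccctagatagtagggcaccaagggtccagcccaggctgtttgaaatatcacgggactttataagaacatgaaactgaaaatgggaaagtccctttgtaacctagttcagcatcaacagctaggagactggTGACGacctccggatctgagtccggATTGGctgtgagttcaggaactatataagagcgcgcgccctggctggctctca
H2-M3: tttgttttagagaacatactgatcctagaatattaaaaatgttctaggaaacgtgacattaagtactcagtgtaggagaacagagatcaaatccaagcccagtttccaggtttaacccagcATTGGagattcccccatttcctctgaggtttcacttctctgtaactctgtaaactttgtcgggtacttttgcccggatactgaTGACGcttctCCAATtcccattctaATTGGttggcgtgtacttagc
Of the 13 class I genes with both a test and a promoter, 9 held TGACG and 12 held ATTGG in this window. All 7 class II genes held ATTGG, 1 (H2-Aa) held TGACG and 3 (H2-DMb1, H2-Eb1 and H2-Eb2) held AGNAACNGA. Among 32851 promoter entries of the same 250 bases, 17.8% held TGACG, 33.8% held ATTGG and 4.42% held AGNAACNGA. Of the 13 untested members with a promoter, only H2-M5 and H2-T3 lacked ATTGG. H2-M10.1, H2-M10.3, H2-M10.4 and H2-M10.5 of them held TGACG, and AGNAACNGA was not found in them. ATTGG was thus common in tested and untested members alike. In H2-K1, B2m and H2-M3, 20 bases separate TGACG from ATTGG on the same strand, and in H2-Aa 21 bases do. This spacing was looked up after the matches were seen. Of the 21 tested members with a promoter, 5 had the pair 20 or 21 bases apart, H2-D1 being the fifth. The pair was in 0.152% of all entries and 0 of the 13 untested members with a promoter. The matches of H2-Aa, H2-K1, B2m and H2-M3 were seen before the spacing was chosen. They are among the 5, so the count is no support. GAAANNGAA, a motif of interferon regulatory factors held by 7.13% of entries, was in B2m, H2-T22 and H2-T23. A match describes the letters and is not a binding site.

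In the chromosome map (GENCODE M21, GRCm38), all 43 H2- genes and Tap1, Tap2 and Tapbp lie on chromosome 17, between 33915899 and 37483552. B2m is on chromosome 2, Nlrc5 on chromosome 8, Ciita on chromosome 16 and Cd74 on chromosome 18. These 4 genes outside the complex were called higher in both models.

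The class II binding chains were the first measure of that class. H2-Aa (ENSMUSG00000036594), the alpha chain of the I-A molecule, had 14.5, 11.8 and 16.7 CPM in control mice, 13.5, 11.4 and 11.9 in FLExD/+ mice, 57.7, 42.9 and 51.2 in moderate mice and 36.3, 40.7 and 40.8 in severe mice. Its beta chain partner H2-Ab1 (ENSMUSG00000073421) had 15.6, 10.7 and 14.9 CPM in control, 13.5, 11.3 and 9.81 in FLExD/+, 53.2, 35.5 and 42.1 in moderate and 29.99, 31.5 and 35.6 in severe mice. Both were low in the control and FLExD/+ mice, which overlapped, and high in every moderate and severe mouse. Against control the log2 fold change of H2-Aa was 1.82 in moderate mice (standard error 0.13, edgeR adjusted p = 5.4e-08) and 1.45 in severe mice (standard error 0.13, edgeR adjusted p = 1.3e-07). For H2-Ab1 it was 1.67 and 1.24.

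The beta chain of I-E, H2-Eb1 (ENSMUSG00000060586), had 13.7, 9.92 and 15.9 CPM in control, 14.1, 12.9 and 11.8 in FLExD/+, 57.2, 43.5 and 46.9 in moderate and 33.5, 36.5 and 36.5 in severe mice. Every moderate mouse lay above every severe mouse on this scale, and every severe mouse above the other groups. Its log2 fold change was 1.90 in moderate mice (standard error 0.15, edgeR adjusted p = 1.2e-07) and 1.43 in severe mice (standard error 0.15, edgeR adjusted p = 6.0e-07). Its alpha chain partner appears in the table as H2-Ea-ps, a polymorphic pseudogene in the annotation, with 0 counts in all 12 mice. H2-Eb2, a second I-E beta gene, had 0 counts in all control mice, 4, 4 and 5 in moderate and 7, 2 and 5 in severe mice. The floor of 3 counts per control library leaves no lower bound above 1 for it. It was called in both models, but not with FLExD/+ mice as the reference, where mouse 1378 had 2.06 counts. The moderate call was also lost without moderate mouse 1331, and the severe call without severe mouse 1047 or 1079.

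The invariant chain Cd74 (ENSMUSG00000024610), which guides class II molecules to the compartment where they meet peptide, was the most abundant class II gene per length, at 25.1 ± 4.30 TPM in controls and 120.4 ± 13.6 TPM in moderate mice (SD, n = 3). It had 33.8, 27.5 and 36.6 CPM in control, 32.8, 28.8 and 31.4 in FLExD/+, 131, 105 and 105 in moderate and 77.4, 81.2 and 86.7 in severe mice. The 3 levels did not overlap, with moderate mice highest on the CPM scale. The log2 fold change against control was 1.80 in moderate mice (standard error 0.12, edgeR adjusted p = 2.0e-08) and 1.33 in severe mice (standard error 0.12, edgeR adjusted p = 9.9e-08).

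H2-DM, made of H2-DMa and H2-DMb1 or H2-DMb2, takes the remnant of the invariant chain out of the groove. H2-DMa (ENSMUSG00000037649) had 3.29, 1.49 and 2.51 CPM in control, 2.11, 2.07 and 1.48 in FLExD/+, 6.36, 4.57 and 5.998 in moderate and 5.902, 5.97 and 5.82 in severe mice. H2-DMb1 (ENSMUSG00000079547) had 2.21, 1.29 and 2.13 CPM in control, 2.01, 1.97 and 1.05 in FLExD/+, 7.47, 5.33 and 6.10 in moderate and 6.83, 6.75 and 7.62 in severe mice. For both, moderate and severe mice overlapped and stood clear of the rest. The log2 fold change of H2-DMb1 was 1.75 in moderate mice (standard error 0.23, edgeR adjusted p = 1.7e-05) and 1.91 in severe mice (standard error 0.23, edgeR adjusted p = 2.5e-06), and that of H2-DMa 1.22 and 1.28. Under TMM with all mice H2-DMb2 was not called in either model, though it was called higher in severe mice without mouse 1079, with FLExD/+ mice as the reference and by limma, and in both models with library size alone. It was at 0.764 ± 0.0853 CPM in controls and 1.12 ± 0.259 CPM in severe mice (SD, n = 3; log2 fold change 0.54, standard error 0.29, edgeR adjusted p = 0.111). H2-DMb1 and H2-DMb2 share sequence: 21.2% of the 50-base stretches of H2-DMb2 are also in H2-DMb1, so their split of reads is uncertain.

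H2-O restrains H2-DM and is best known from B cells and some dendritic cells. Its beta chain H2-Ob was called higher in both models from few counts, 5, 2 and 5 in control against 21, 11 and 12 in moderate and 32, 13 and 16 in severe mice (log2 fold changes 1.28 and 1.26, edgeR adjusted p = 0.0494 and 0.0351). Neither call was made by DESeq2, by limma on log2(TPM + 1), with FLExD/+ mice as the reference or with only the 2 groups compared in the fit, and the moderate call was also lost with median-of-ratios factors and with no filter. Leaving out mice, the moderate call was lost without control mouse 1127, 1246 or 1349 or moderate mouse 1236 or 1331, and the severe call without control mouse 1246 or 1349 or severe mouse 1047. Its alpha chain H2-Oa was under the minimum.

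Ciita (ENSMUSG00000022504), the master switch of class II genes, had 1.75, 1.29 and 2.27 CPM in control, 1.47, 1.28 and 1.00 in FLExD/+, 5.22, 4.61 and 5.01 in moderate and 5.43, 4.58 and 5.31 in severe mice. The moderate and severe mice formed one level and the other mice a lower one. Against control, Ciita changed by a log2 fold of 1.48 in moderate mice (standard error 0.19, edgeR adjusted p = 1.7e-05) and 1.52 in severe mice (standard error 0.19, edgeR adjusted p = 4.8e-06).

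Among class I genes, the classical heavy chains H2-K1 and H2-D1 are those that present peptides to most CD8 T cells. H2-K1 (ENSMUSG00000061232) had 58.3, 41.0 and 45.8 CPM in control, 57.1, 48.2 and 54.8 in FLExD/+, 92.9, 69.9 and 69.7 in moderate and 135, 115 and 129.6 in severe mice. H2-D1 (ENSMUSG00000073411) had 63.1, 46.8 and 58.9 CPM in control, 71.4, 61.5 and 57.6 in FLExD/+, 129.9, 93.2 and 92.0 in moderate and 169.7, 144 and 167 in severe mice. For both, the 3 levels were separate, with severe mice highest, and moderate mouse 1236 stood above the other moderate mice. The log2 fold change of H2-K1 was 0.68 in moderate mice (standard error 0.14, edgeR adjusted p = 0.000855) and 1.39 in severe mice (standard error 0.14, edgeR adjusted p = 4.6e-07). That of H2-D1 was 0.90 and 1.51. The 2 genes together held between 62.4% and 74.1% of the counts of all class I heavy chains in each mouse. That share was 63.2 ± 1.09% in controls, 65.2 ± 2.98% in moderate mice and 72.3 ± 2.12% in severe mice (SD, n = 3).

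B2m (ENSMUSG00000060802), the light chain that pairs with class I heavy chains, was the most abundant member per length in every group, from 65.1 ± 4.68 TPM in controls to 457 ± 35.9 TPM in severe mice (SD, n = 3). It had 52.3, 44.5 and 46.9 CPM in control, 51.4, 53.9 and 49.3 in FLExD/+, 103, 70.8 and 73.4 in moderate and 145, 133 and 139.9 in severe mice. The order of control, moderate and severe mice was free of overlap. For B2m the log2 fold change was 0.78 in moderate mice (standard error 0.13, edgeR adjusted p = 1.0e-04) and 1.54 in severe mice (standard error 0.13, edgeR adjusted p = 5.1e-08).

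The TAP transporter, Tap1 with Tap2, and its bridge to the heavy chain, Tapbp (tapasin), rose as well. Tap1 (ENSMUSG00000037321) had 5.56, 3.21 and 4.07 CPM in control, 5.87, 3.11 and 3.49 in FLExD/+, 10.2, 7.76 and 7.01 in moderate and 16.2, 13.5 and 13.3 in severe mice. Again the levels of control, moderate and severe mice did not overlap. Tap1 had a log2 fold change of 0.96 in moderate mice (standard error 0.24, edgeR adjusted p = 0.00405) and 1.75 in severe mice (standard error 0.23, edgeR adjusted p = 1.4e-05). Tapbp went from 20.7 ± 1.14 to 36.5 ± 1.01 and 41.4 ± 3.42 CPM in control, moderate and severe mice, and Tap2 from 7.25 ± 1.41 to 11.46 ± 0.982 and 14.3 ± 0.597 CPM (SD, n = 3). An antisense gene, Gm19412, overlaps Tapbp, and the libraries were not described as stranded, so reads of the pair cannot be told apart.

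Nlrc5 (ENSMUSG00000074151), the class I switch, had 2.37, 1.198 and 2.22 CPM in control, 2.79, 2.57 and 2.34 in FLExD/+, 5.38, 4.02 and 3.87 in moderate and 10.7, 8.42 and 7.11 in severe mice. Moderate mice were above all control mice and severe mice above all moderate mice. Its log2 fold change was 1.199 in moderate mice (standard error 0.24, edgeR adjusted p = 6.7e-04) and 2.18 in severe mice (standard error 0.23, edgeR adjusted p = 7.1e-07). Compared directly, Nlrc5 was higher in severe than in moderate mice by 0.98 (standard error 0.20, edgeR adjusted p = 0.00111), or 1.68 with library size alone. For Ciita that difference was 0.04 (standard error 0.17, edgeR adjusted p = 0.849), or 0.74 with library size alone.

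**Figure D3:**
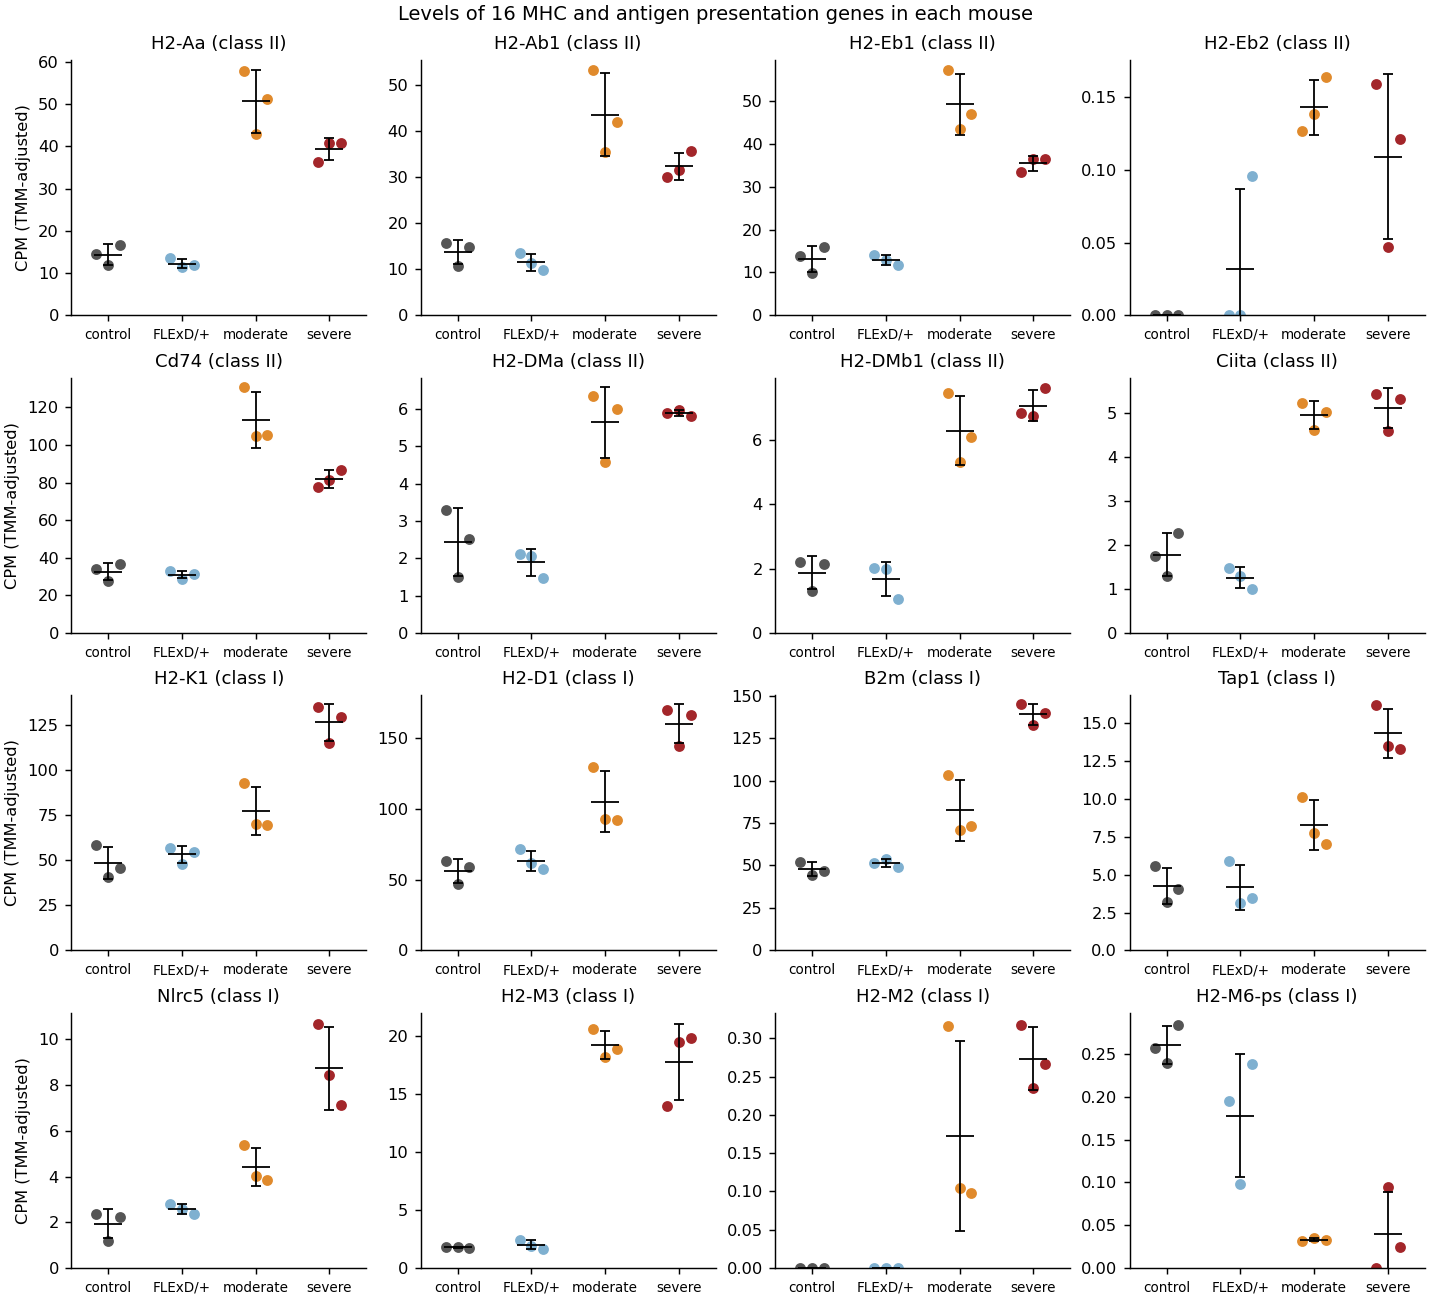
CPM on TMM-adjusted library sizes (vertical axes, each from 0) of 16 members in each of the 12 mice by group; points are mice, the dash and bar are mean and SD of 3 mice. In the upper 2 lines of panels, class II genes are high in moderate and severe mice alike or highest in moderate mice on this scale, an order that turns for H2-Aa, H2-Ab1, H2-Eb1, H2-Eb2 and Cd74 under library size alone. In the lower lines H2-K1, H2-D1, B2m, Tap1 and Nlrc5 are highest in severe mice, and H2-M2, H2-Eb2 and H2-M6-ps rest on few counts.

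Of the 14 other class I heavy chains tested, mostly the Q, T and M genes with restricted or specialised roles, 4 were higher in moderate and 6 in severe mice, with 1 lower in each. Without H2-M2 and H2-M6-ps, 3 and 5 of 12 were higher, 25% and 41.7%, near the 23% and 31.3% of all genes. H2-M3 (ENSMUSG00000016206), which presents formylated bacterial and mitochondrial peptides, had 1.80, 1.77 and 1.75 CPM in control, 2.45, 1.93 and 1.67 in FLExD/+, 20.6, 18.2 and 18.9 in moderate and 14.0, 19.5 and 19.9 in severe mice. It was low and even in controls and high in all moderate and severe mice. The change was 10.8-fold in moderate mice (log2 fold change 3.44, standard error 0.17, edgeR adjusted p = 1.7e-09) and 10.0-fold in severe mice (log2 fold change 3.32, standard error 0.17, edgeR adjusted p = 3.2e-10). Between the models it was -0.11 (standard error 0.13, edgeR adjusted p = 0.508), and 0.57 with library size alone. H2-M3 was singled out for the size of its change. Only 0.576% of its 50-base stretches occur in another gene, so its reads are little shared.

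H2-T23, whose product Qa-1 is a ligand of NKG2A receptors, went from 9.29 ± 0.212 CPM in controls to 14.8 ± 2.12 in moderate and 22.2 ± 0.669 in severe mice (SD, n = 3). H2-T22 was higher in both models as well, with log2 fold changes of 0.71 and 0.52; the second lies close to the threshold and was not called without control mouse 1246 or 1349, by DESeq2 or with median-of-ratios factors. Under TMM with all mice, H2-T24 and H2-Q7 were called in severe mice alone (log2 fold changes 1.26 and 0.82), and H2-Q7 was not called without control mouse 1246. Both were called higher in moderate mice too with library size alone. H2-T24 was also called there by limma on log2(TPM + 0.1) and with library size without the 20 most abundant genes. The difference from moderate mice was itself called under TMM for H2-T24 (0.86, edgeR adjusted p = 0.00467) and not for H2-Q7 (0.49, edgeR adjusted p = 0.120). For H2-Q7 it was called with library size alone (1.19), with library size without the 20 most abundant genes, by limma, and with only the 2 groups compared in the fit. H2-Q1, H2-Q4, H2-Q5, H2-Q6, H2-Q10, H2-T10 and H2-K2 were not called in either model under TMM with all mice. Their log2 fold changes lay between -1.26 and 0.22 in moderate and between -0.13 and 0.61 in severe mice. Under library size alone all 7 were called higher in severe mice, and H2-Q4 and H2-Q6 in moderate mice as well. H2-Q1 was tested only because of the severe mice, so its call is no support. H2-Q4 was also called in moderate mice by limma on log2(TPM + 1). Under TMM with no filter, H2-Q4 and H2-Q10 were called in severe mice. H2-Q10 was also called higher there under TMM without control mouse 1246 or severe mouse 1079.

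Reads of these genes are hard to assign, since RSEM divides a read among the genes it matches. The share of a gene's 50-base stretches that also occur in another gene was 53.5% for H2-T22, 50.4% for H2-T10, 36.4% for H2-Q4, 36.4% for H2-Q5 and 35.0% for H2-Q6. It was 9.63% for H2-K1, 12.8% for H2-D1, 14.5% for H2-T23 and 0% for B2m. Class II binding chains were nearly unique, at 0.514% for H2-Aa and 0% for H2-Ab1 and H2-Eb1, and Cd74 was at 0% too. These shares count exact matches in GENCODE M21 and are lower bounds for an aligner that allows mismatches.

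A few members moved near the limit of detection. H2-M2, a class I gene, had 0 counts in all control and FLExD/+ mice, 10, 3 and 3 counts in moderate and 14, 10 and 11 in severe mice, at least 1.77-fold higher in severe mice against a floor of 3 counts in each control library. In moderate mice the bound of 1.12-fold fell to 0.65 without mouse 1236 and so gives none. H2-M6-ps, an unprocessed pseudogene, went the other way, with 5, 5 and 6 counts in control, 1, 1 and 1 in moderate and 0, 4 and 1 in severe mice. Its ratio to control was 0.127 (95% counting interval 0.0236 to 0.442) in moderate and 0.150 (0.0431 to 0.430) in severe mice, intervals that cover counting error only. It passed the minimum only through control and FLExD/+ mice, so its direction was set by the filter, and with library size alone the severe call was lost. The remaining members called lower were H2-Ke6, a steroid dehydrogenase gene, from 23.4 ± 1.88 CPM in controls to 9.92 ± 1.99 in severe mice, and H2-Ke2, a prefoldin subunit gene, from 23.4 ± 1.90 to 16.4 ± 1.78 CPM (SD, n = 3). Under library size alone and in limma on TPM neither was called lower, and H2-Ke2 was called higher; under TMM its call was lost without control mouse 1349 or severe mouse 1047. H2-Ke6 shares 70.5% of its stretches with Gm20427, a gene that overlaps it on the same strand.

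The severe muscles were compared with the moderate ones as well. B2m, H2-K1, H2-D1, Tap1, Nlrc5, H2-T23 and H2-T24 were called higher in severe mice under TMM, 7 of the 21 class I genes tested (33.3%, against 16.2% of all genes), with log2 fold changes from 0.58 (H2-T23) to 0.98 (Nlrc5). Class I counts were 16 by limma on log2(TPM + 1), where 44.2% of all genes were called higher, and 20 with library size alone, where 54.1% were. B2m was higher by 0.75 (standard error 0.12, edgeR adjusted p = 1.9e-04) and H2-D1 by 0.61 (standard error 0.14, edgeR adjusted p = 0.00307). The 1 member called lower was H2-Ke6. edgeR called 0 class II genes higher and 0 lower; at an unadjusted p under 0.05 there were 0 higher and 4 lower, DESeq2 called 0, limma on log2(TPM + 1) called 2 higher, and library size alone called 4 higher. The 4 lower genes were Cd74 (-0.47, edgeR adjusted p = 0.00318), H2-Eb1 (-0.47, edgeR adjusted p = 0.0114), H2-Ab1 (-0.43, edgeR adjusted p = 0.0396) and H2-Aa (-0.37, edgeR adjusted p = 0.0246), each short of the fold threshold. Without moderate mouse 1308, Cd74, H2-Eb1 and H2-Ab1 passed it and 4 members were called lower in all; without moderate mouse 1331 or severe mouse 1079, Cd74 did and 2 members were.

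The direction of these 4 genes flips with the scaling: under library size alone Cd74 was at 0.22, H2-Aa at 0.32, H2-Ab1 at 0.26 and H2-Eb1 at 0.22, severe over moderate. Under library size alone the median gene also moved, by 0.72. Measured from the median of all genes, the class II median was -0.22 under TMM and -0.22 under library size alone, and the class I median 0.47 and 0.47. These distances agree because a change of library scaling moves all genes by nearly the same amount. In limma on log2(TPM + 1) they were -0.09 for class II and 0.37 for class I. Without H2-Eb2 the class II median under TMM was -0.02 in place of -0.19. The distances carry no test, and whether class II RNA was lower or higher in severe muscle was a matter of the scale. In TPM, Cd74 was at 120.4 ± 13.6 in moderate and 144 ± 7.33 in severe mice, and B2m at 159 ± 30.1 and 457 ± 35.9 (SD, n = 3). By TPM order Cd74 came next after B2m in moderate mice, and after B2m, H2-D1 and H2-K1 in severe mice.

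**Figure D4:**
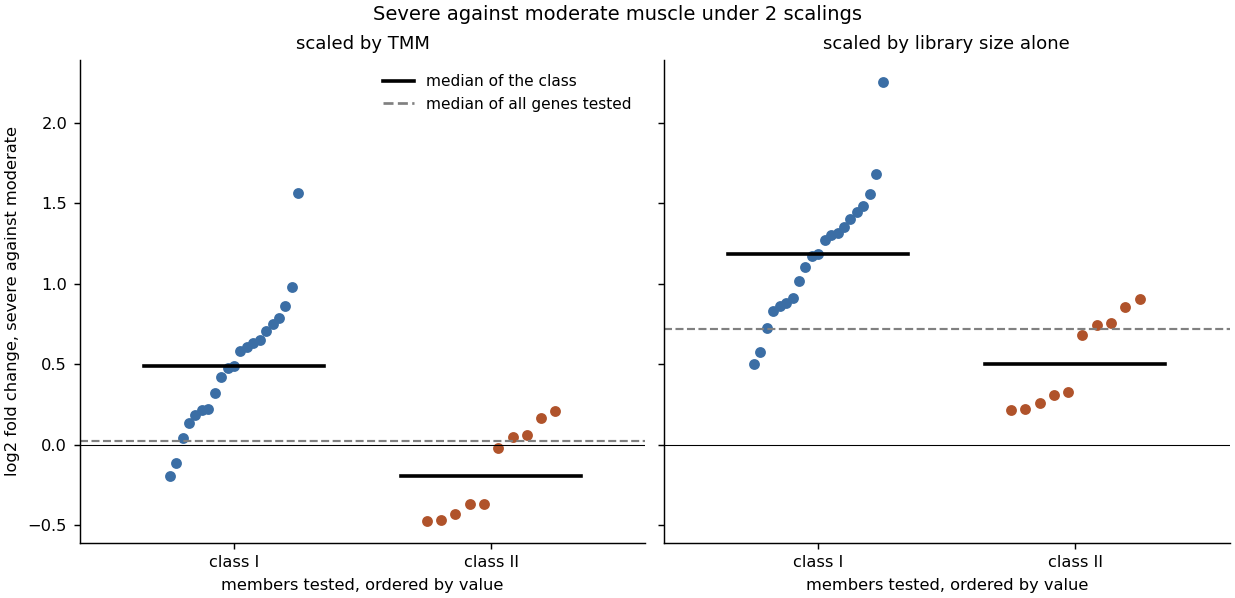
Log2 fold change of severe against moderate mice (vertical axis) for the 21 class I and 10 class II genes tested, ordered by value, scaled by TMM (left) and by library size alone (right). Black lines are class medians and the dashed line is the median of all genes tested. The class II median is -0.19 under TMM and turns to 0.50 under library size alone, where the median of all genes is 0.72. Both class medians keep their distance from it because the scaling moves all genes by nearly the same amount.

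FLExD/+ and control muscle were compared to see whether the transgene without Cre came with a change. edgeR called 0 members higher and 0 lower, where 0% and 0.0054% of all genes tested were called. At an unadjusted p under 0.05 there was 1 member higher, H2-Q10 (log2 fold change 1.10, standard error 0.28, edgeR adjusted p = 1), and 1 lower, Ciita (-0.50, standard error 0.23, edgeR adjusted p = 1), and DESeq2 and limma called 0. That is 2 of 33 members, where 715 of the 18502 genes passed the same unadjusted cut, so the members did not stand out from all genes. Both are named because of these values. H2-Q10, in most tissues a minor secreted class I gene made by the liver, had 1.24, 1.58 and 1.04 CPM in control and 2.89, 3.505 and 1.91 CPM in FLExD/+ mice, groups that did not overlap.

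The rest of the class I pathway was followed with 10 genes for peptide cutting, trimming and folding. In moderate mice 7 were higher and in severe mice 8, with medians of 0.66 and 0.76, and the remaining genes were not called. That is 70% and 80%, against 23% and 31.3% of all genes. The immunoproteasome subunit Psmb8 went from 4.54 CPM in controls to 8.20 in moderate and 12.8 in severe mice (log2 fold changes 0.85 and 1.499). Pdia3, the oxidoreductase of the loading complex, changed most, by 1.35 and 1.98. Psme1 changed least in severe mice, at -0.04, and the trimming enzyme Erap1 was higher in moderate mice (0.65). Severe against moderate, Erap1 was called lower under TMM (-0.50) and was at 0.19, not called, with library size alone. Among 4 class I-like genes, Mr1, which presents vitamin metabolites to MAIT cells, was lower in both models (-1.77 and -2.02), Cd1d1 and Fcgrt were not called and Cd1d2 was under the minimum.

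For class II the wider list held 12 genes, of which 6 were higher and 2 lower in moderate mice and 6 higher and 4 lower in severe mice. The higher ones are 50% in both, against 23% and 31.3% of all genes, and the lower ones 16.7% and 33.3%, near the 15.1% and 25.9% of all genes. Of those that cut antigen and the invariant chain, Ctsl changed by 0.04 in moderate mice, not called, and by 0.89 in severe mice. Ctss, cathepsin S, rose from 6.36 CPM in controls to 94.4 in moderate and 263 in severe mice (log2 fold changes 3.89 and 5.37), Lgmn rose by 1.95 and 3.33, and the thiol reductase Ifi30 by 2.36 and 3.30. March1, which sends class II molecules to degradation, rose by 2.65 and 3.70. Unlike the class II chains, Ctss, Lgmn, Ifi30, March1, Ctsl and Nfya were called higher in severe than in moderate mice under TMM. The box-binding factors went apart: Nfya rose by 0.95 and 1.53, while Nfyb fell by 1.30 and 1.51 and Rfxap fell by 0.80 and 1.03 on the log2 scale under TMM. With library size alone Nfyb was still called lower in moderate mice (-0.71) and was not called in severe mice (-0.22), and Rfxap was called in neither. Rfxank and Nfyc were called lower in severe mice, but higher with library size alone, and Rfx5 higher in moderate mice, each in the 1 model, and March8 in neither. The costimulators that act beside class II, Cd80, Cd86 and Cd40, were 2 of 3 higher in moderate and 3 of 3 in severe mice. The shares of all genes were 23% and 31.3%. Cd86 rose by 2.12 and 2.95. Cd80 had 0.309, 0.0479 and 0.379 CPM in control mice and would not have passed the minimum without the moderate and severe mice. The call of Cd80 is therefore no support.

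Of 9 genes of the interferon gamma input, 8 could be tested. In moderate mice 1 was higher and 2 lower, and in severe mice 3 were higher and 2 lower. These are 12.5% and 25%, then 37.5% and 25%, near the shares of all genes given above. Irf8 rose from 2.50 CPM in controls to 6.45 and 13.8 CPM (log2 fold changes 1.37 and 2.46); Irf1 and Ifngr1 were higher in severe mice by 0.60 and 0.61. The receptor chain Ifngr2 and the kinase Jak2 were lower in both models under TMM, with -1.23 and -1.34 in severe mice. With library size alone neither was called in either model. Ifng itself was at 0 counts in all control and FLExD/+ mice and in moderate mouse 1308 and severe mouse 1066, with its highest level of 0.272 CPM in severe mouse 1047, and was too low to test.

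The tissue and the model were checked by their markers. All 6 skeletal muscle markers were abundant in every mouse, with a summed level of 123432 to 169570 CPM in controls, 56137 to 67918 CPM in moderate and 8726 to 15360 CPM in severe mice; Tnnt3 was the most abundant per length. By edgeR 5 of the 6 were lower in moderate and 6 of 6 in severe mice. The DUX4 target Wfdc3 had 0.154, 0.383 and 0.142 CPM in control mice, 0.196, 0.0494 and 0.383 CPM in FLExD/+ mice, and 92.1, 69.4 and 68.3 CPM in moderate and 63.0, 84.3 and 116 CPM in severe mice. Wfdc3 thus set moderate and severe mice apart from the rest. Between severe and moderate mice it was not called under TMM (log2 fold change 0.20), and was called higher in severe mice with library size alone (0.88). Xist was present in all 12 mice, from 128 to 382 CPM, and Ddx3y had at most 1 count; sex is not in the labels.

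Markers of other cells were read beside the MHC genes, and their directions differed by cell type. All 6 macrophage markers (Emr1, Cd68, Csf1r, Cd14, Mrc1 and Lyz2) were higher in both models and higher again in severe than in moderate mice. Their summed level was 87.2, 80.7 and 103 CPM in control, 84.3, 89.0 and 95.2 in FLExD/+, 487, 395 and 428 in moderate and 936, 855 and 892 in severe mice, and Lyz2 was the most abundant per length. None was at 0 in any mouse. From moderate to severe mice the median log2 fold change of these markers was 1.01 on the TMM scale, while the class II sum had means of 275 ± 40.1 and 209 ± 11.2 CPM (SD, n = 3). The leukocyte marker Ptprc took the same course as the macrophage markers, 6.93 ± 1.93, 32.5 ± 5.76 and 68.0 ± 8.35 CPM in control, moderate and severe mice. In bulk RNA, more cells of a type and more RNA per cell cannot be told apart, and the part of any cell type in the MHC values was not tested.

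Of 7 dendritic cell markers, Itgax, Flt3 and Batf3 were higher in both models. Xcr1 was as well, but passed the minimum only through moderate and severe mice, so that its direction was set by the filter. Zbtb46, Cd209a and Siglech were not, and Siglech was lower in moderate mice (-0.99, edgeR adjusted p = 0.0137). Their sum was 12.5 ± 0.691, 23.3 ± 2.86 and 34.6 ± 1.93 CPM in control, moderate and severe mice, with Itgax, also made by activated macrophages, the most abundant per length over all mice and Xcr1 at 0 in all control mice. B cell markers stayed near the floor, with a sum of at most 0.726 CPM in any mouse. Of these 3 genes Cd79a and Cd79b could be tested and were not called by edgeR (Cd79b, the larger in level, adjusted p = 0.401 and 0.108). Ms4a1 was under the minimum and averaged 0.0162 CPM in severe mice. T cell markers were low too, at most 4.05 CPM in sum. Cd4, most abundant per length, was at 2.69 ± 0.699 CPM in severe mice (log2 fold change 4.01, standard error 0.48, edgeR adjusted p = 3.0e-06). It had 0.257, 0.144 and 0.0947 CPM in control mice and would not have passed the minimum without the moderate and severe mice. Its call is therefore no support. Cd3e was lower in severe mice under TMM from levels near the floor (-1.63, edgeR adjusted p = 0.0122), having passed only through control and FLExD/+ mice. Cd8a was not called, and Cd3d and Cd3g were too low to test. Of 3 NK cell markers, Ncr1 and Klrb1c passed the minimum only through moderate and severe mice, so that their direction was set by the filter, with at most 0.305 CPM in the group means; Nkg7 was under the minimum. The 4 endothelial markers went down under TMM, 2 of them called in moderate and 4 in severe mice, with Kdr falling by 2.37 in severe mice on the log2 scale. With library size alone Kdr was called lower in both models (-1.08 in severe mice), Pecam1 was called higher in severe mice and Cdh5 and Tek were not called.

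**Figure D5:**
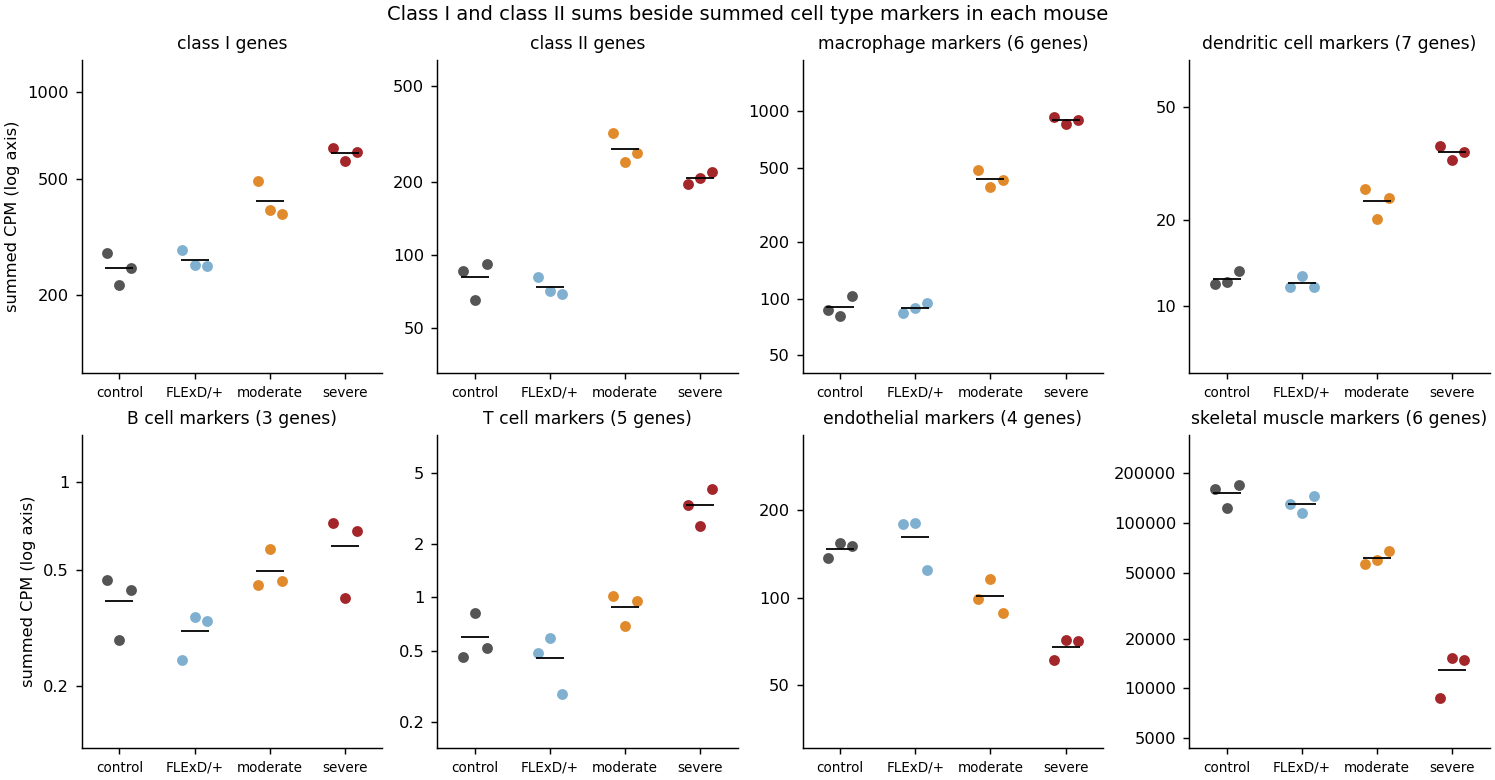
Summed CPM (log axes, each with its own range) of class I genes, class II genes and 6 lists of cell type markers in each of the 12 mice by group; points are mice and dashes are means of 3 mice. Macrophage markers are highest in severe mice (855 to 936 CPM), B cell markers stay at or below 0.726 CPM in all mice and muscle markers are lowest in severe mice; class II is highest in moderate mice on this TMM scale and in severe mice under library size alone or TPM. How far each cell type accounts for the MHC values was not tested.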

How the data were processed

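Gastrocnemius RNA of 12 mice was measured. The authors mapped reads with RSEM 1.2.4, calling Bowtie, then TopHat2 2.0.8b, to a merged annotation of mm10, and deposited expected counts without normalization; the strand setting is not stated. The authors also deposited TPM from the same estimates, above 0 even in the 139 member values with 0 counts. Here, expected counts were rounded and tested with edgeR 4.0.16 (TMM, robust quasi-likelihood F-test, R 4.3.3) in 1 fit of 4 groups. Genes tested had 5 or more counts in at least 3 mice. Standard errors came from the F statistic. A count of 3 equals 0.0681 to 0.154 CPM. Alternatives were DESeq2 1.42.0, limma 3.58.1 on log2(TPM + 1) or log2(TPM + 0.1), other factors, filters, thresholds and references, the study's pairwise Bayes factor rule, and each mouse left out. p-values measure spread between mice; an exact permutation test of 3 against 3 cannot go below 0.10. Members, pathway lists and marker lists were chosen with earlier results of these data known. From those lists, 2 genes are not reported here. Values in every mouse are given for Cd74, Ciita, H2-Aa, H2-Ab1, H2-Eb1, H2-DMa, H2-DMb1, B2m, H2-K1, H2-D1, Tap1, Nlrc5 and the 4 other H2- members of largest change among those called in severe mice. From some lists the largest and smallest changes are named. Other named list genes were chosen after their values were seen. Figures used matplotlib 3.10.9 and Python 3.11.15.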

Additional observations from a re-analysis of the deposited data

How the results depend on the processing

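Of 180 recomputed counts and class ratios, 155 stayed within 1.5 times or 1 SD; of 740 recomputed changes of single genes, 694 kept direction and side of the threshold, 15 newly passed it, 8 lost it and 23 reversed. Members higher in moderate mice (20) became 12 at a log2 fold of at least 1 and 7 by the pairwise Bayes factor rule, which gave 13 for severe mice (22). Members lower in moderate mice (1) became 0 with limma on log2(TPM + 1), filterByExpr and the Bayes rule, and 2 with FLExD/+ as reference. Members lower in severe mice (3) became 0 with library size alone and limma on log2(TPM + 1), and 1 with limma on log2(TPM + 0.1) and the Bayes rule. Severe over moderate, members higher (7) became 24 with library size alone, 18 and 24 with limma at 1 and 0.1, and 0 at a log2 fold of at least 1 and by the Bayes rule. They became 13 with library size without the 20 most abundant genes, where 30% of all genes were called higher. That setting was chosen after seeing the data. Members lower (1) became 0 with library size alone, with both limma settings and at a log2 fold of at least 1, and 6 without a fold threshold; leaving out single mice gave 1 to 4.

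Severe over moderate, these log2 changes reversed with library size alone, limma at 1 and limma at 0.1: Cd74 to 0.22, 0.26 and 0.26, H2-Aa to 0.32, 0.36 and 0.36, H2-Ab1 to 0.26, 0.33 and 0.34, H2-Eb1 to 0.22, 0.26 and 0.26, H2-Eb2 to 0.31, 0.0082 and 0.037, and H2-M3 to 0.57, 0.57 and 0.59, and to 0.18 without the 20 genes. Leaving out single mice, Ciita ranged from -0.0043 to 0.12, H2-DMa from -0.068 to 0.16 (both reversed without moderate mouse 1308), H2-M3 from -0.19 to 0.040 (severe mouse 1047) and H2-M6-ps from -1.20 to 0.78 (severe mouse 1066). Fewer genes or mice explain filterByExpr and left-out mice; for the rest the cause was not tested. No paired analysis was possible because mouse numbers are not shared between groups. With 3 mice a group, members near the floor of 3 counts (H2-M2, H2-Eb2, H2-M6-ps, H2-Ob) are the least certain.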
